A study of Mus musculus with 16 samples.

Results

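The genes described here are 6 members of the S100 family, S100a8, S100a9, S100a4, S100a6, S100a10 and S100a11, out of 49315 genes in the count files, and they were chosen by name, with the Ensembl identifier of each gene matched to its mouse symbol. RNA was sequenced from neutrophils of male mice aged 8 to 12 weeks, which had either no surgery (0h) or cecal ligation and puncture (CLP), an abdominal sepsis model in which the cecum is tied and punctured, 12 hours earlier. Blood and lung neutrophils, gated on Ly6G, CD11b and CD45.2, came from wild-type (WT) mice and from mice labelled αD KO, a knockout line for the integrin αD chain, which Itgad encodes, and no sham-operated group was among the samples. The 8 groups have 3 libraries each, named 1a, 1b and 2 here, and it is not stated whether libraries 1a and 1b, listed under 1 sample, came from separate mice, so p-values measure the spread between libraries, which may be technical.

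S100 proteins are small calcium-binding proteins of the EF-hand type that act mostly as dimers. S100a8 and S100a9 form calprotectin, which fills much of the neutrophil cytosol, binds zinc and manganese and so keeps them from microbes, and signals through TLR4 and RAGE once released. S100a4 binds non-muscle myosin, S100a6 binds calcyclin-binding protein, S100a10 (also called p11) pairs with annexin A2, and S100a11 pairs with annexin A1.

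All 6 genes are protein coding and lie on chromosome 3 of the mouse (GRCm38, the build in the submitters' processing notes). From left to right, S100a4 spans chr3:90603771-90606045, S100a6 spans chr3:90612882-90624181 and S100a8 spans chr3:90668978-90670035, all on the plus strand. S100a9 follows on the minus strand at chr3:90692632-90695721, 22597 bases from S100a8, and the annotation places no other gene between them. S100a11 (chr3:93520488-93526287) and S100a10 (chr3:93555080-93564643), both on the plus strand, form a second pair, which begins 2824767 bases beyond S100a9. The promoters of the calprotectin pair and of S100a11, an abundant member that edgeR called in no comparison, are shown because the pair was called together in blood. The windows run from 250 bases before to 20 bases after the RefSeq start (GRCm38.p6), 5′ to 3′ on the strand of the gene, at chr3:90668821-90669090 for S100a8, chr3:90695702-90695971 for S100a9 and chr3:93520246-93520515 for S100a11. Capitals mark the letters TATAAA, a core promoter element, and TTGCNNAA, a C/EBP motif.
S100a8: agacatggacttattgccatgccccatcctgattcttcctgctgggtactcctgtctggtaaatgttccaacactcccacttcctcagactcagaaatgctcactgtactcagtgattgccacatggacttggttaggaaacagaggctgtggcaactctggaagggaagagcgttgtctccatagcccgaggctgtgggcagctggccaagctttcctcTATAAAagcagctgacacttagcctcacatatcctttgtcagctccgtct
S100a9: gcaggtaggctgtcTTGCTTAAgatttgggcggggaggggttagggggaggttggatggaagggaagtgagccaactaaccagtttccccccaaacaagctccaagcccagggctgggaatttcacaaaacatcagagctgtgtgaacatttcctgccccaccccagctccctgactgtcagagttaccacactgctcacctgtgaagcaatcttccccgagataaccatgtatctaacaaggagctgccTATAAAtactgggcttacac
S100a11: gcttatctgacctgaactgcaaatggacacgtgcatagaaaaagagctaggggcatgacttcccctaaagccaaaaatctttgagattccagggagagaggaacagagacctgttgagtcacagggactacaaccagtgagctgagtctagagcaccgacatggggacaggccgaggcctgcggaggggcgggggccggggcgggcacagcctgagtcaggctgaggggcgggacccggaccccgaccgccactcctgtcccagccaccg
Both strands were searched over the whole RefSeq windows, which reach 50 bases past the start and so beyond the stretches shown, in the 5 of 6 members in the table and in all 32851 promoters of that length. TATAAA was found in S100a8, 30 bases before the start, in S100a9, at the RefSeq start itself, and in S100a4, and in 13.6% of all promoters. TTGCNNAA was found in S100a9 alone of the 5, and in 10.8% of all promoters. The PU.1 letters GAGGAA were found in S100a8 and S100a11, in S100a4 only past its start (from base 19 after it), and in 28.3% of all promoters, and the STAT letters TTCNNNGAA were found in none of the 5 and in 8.3% of all promoters. These matches describe the letters only.

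The targeted gene does not check the genotype labels in the way a deletion would, since Itgad counts were higher in the libraries labelled αD KO (12.5 to 101.9 CPM) than in those of WT (0.0583 to 3.66 CPM). The position of the deleted part is not given in the sources used here, and genotypes are therefore named by their labels throughout. Levels in CPM are counts scaled to the library size with TMM factors, and the libraries held 5753476 to 29984954 counts. In all 8 groups library 1b had the fewest counts (5753476 to 17976890) and the most genes with a count (29162 to 38844, against 17132 to 32666 in the other libraries). Neutrophil markers summed to between 29380 and 213600 CPM in every group, with all 9 detected in every group (S100a8 and S100a9 are among the 9), against 456 to 1701 CPM for 10 monocyte and macrophage markers, 27.4 to 9054 CPM for 5 erythroid markers, 34.5 to 1255 CPM for 5 B cell markers and 1.75 to 820.9 CPM for 8 lung structural markers. S100a8 and S100a9 had the highest means of the 9 in every group, at 73960 and 58470 CPM in WT blood at 12 hours. Along the change of WT lung at 12 hours, set at 0 for the mean of the WT 0h libraries and 1 for that of 12 hours, library 2 of labelled αD KO lung at 0h stood at 1.03, and libraries 1a and 2 at 12 hours stood at 0.10 and 0.19, against their time labels. Results of the 6 members that rest on them are given with and without them, and the other gene lists were fitted with all libraries. Since these libraries were picked out by their place along a change with time, values without them are a description and tend toward such a change. In these bulk samples, fewer cells of a type and less RNA per cell cannot be told apart.

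S100a8 and S100a9 were among the 9 genes with the most counts in all 24 libraries. Per kilobase of exon, the mean level over the libraries was 54333 CPM for S100a9 and 49040 CPM for S100a8, followed by 4318 CPM for S100a11 and 720 CPM for S100a6. S100a4 (9.54 CPM per kilobase) and S100a10 (7.05 CPM per kilobase) were far below S100a11. All 6 members were detected in every library and passed the filter on low counts in all 13 comparisons, although S100a4 had a single count in a library of WT lung at 0h.

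Calprotectin transcripts took 2.85% ± 0.87 (SD, n = 3) of all counts in WT blood at 0h and 10.4% ± 1.05 (SD, n = 3) at 12 hours after CLP. The 3 libraries at 0h (1a, 1b and 2) had 1.96%, 3.71% and 2.88%, and those at 12 hours had 11.3%, 9.25% and 10.6%, with no overlap. The share in labelled αD KO blood was 3.76%, 3.50% and 4.67% at 0h and 7.45%, 10.7% and 8.86% at 12 hours, again with no overlap. In WT lung, the share was 2.60%, 3.30% and 2.79% at 0h and 3.34%, 13.6% and 4.08% at 12 hours. In the lung at 12 hours only library 1b was as high as the blood libraries of that time, and the nearest libraries of the 2 times were 3.30% and 3.34%. The share in labelled αD KO lung was 5.14%, 4.26% and 5.50% at 0h and 3.69%, 8.95% and 3.36% at 12 hours, and the groups overlapped. The difference in mean share was 7.53 points in WT blood, 5.04 points in labelled αD KO blood, 4.12 points in WT lung (0.82 points without library 1b at 12 hours) and 0.37 points in labelled αD KO lung. The last was -1.44 points without library 1b at 12 hours and 4.25 points without the 3 libraries that stood apart. An exact two-sided permutation test gave p = 0.1, the smallest that 3 against 3 libraries allow, for the first 3 of these (Benjamini-Hochberg adjusted p = 0.25 over 10 comparisons) and p = 1.0 for labelled αD KO lung. The 3 comparisons with a higher share at 12 hours also had lower B cell marker sums. These went from 260.2 to 1200 CPM at 0h to 39.9 to 224.6 CPM at 12 hours in WT blood (1 of 5 genes called lower), from 401.3 to 756.9 to 34.5 to 83.7 CPM in WT lung (3 of 5) and from 313.6 to 1255 to 36.9 to 133.9 CPM in labelled αD KO blood (2 of 5). Platelet marker sums went from 38.4 to 127.5 CPM to 5.29 to 29.5 CPM in WT blood (2 of 5 called lower) and from 23.5 to 640.8 to 4.75 to 41.9 CPM in labelled αD KO blood (1 of 5). Of the 10 monocyte and macrophage markers, 2 of 8 tested were called lower and 1 higher in WT blood, 2 of 7 lower and 1 higher in WT lung, and 3 of 9 lower in labelled αD KO blood. Over all genes tested, 13.5% were called in WT blood, 9.02% in WT lung and 8.75% in labelled αD KO blood. The part of these markers in the shares was not tested. The 95% Wilson interval of a share was at most 0.0412 points wide, which covers counting error only, as the reads carry no molecular identifiers.

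**Figure D1:**
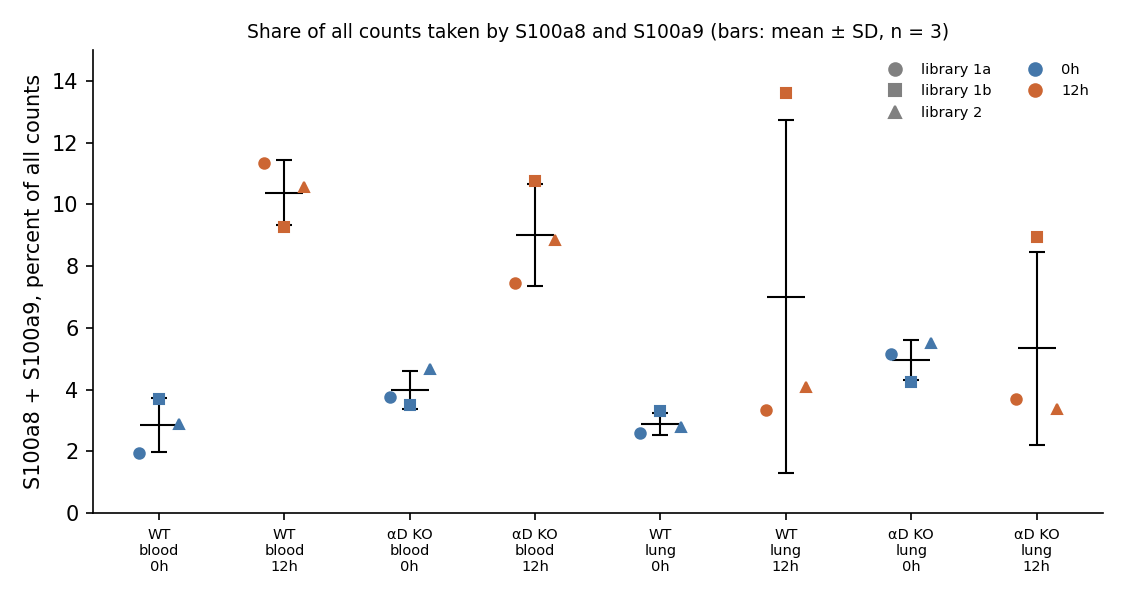
Share of all counts taken by S100a8 and S100a9 together (y axis, percent) in the 8 groups (x axis), with a point for each library, coloured by time, and bars for the mean and SD of 3 libraries. All 6 blood libraries at 12 hours lie between 7.45% and 11.3%, above all 6 at 0h, while in the lung at 12 hours only library 1b of each genotype lies above 8%.

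In WT blood, S100a8 was at 11474, 8852 and 14771 CPM at 0h and at 97865, 42559 and 81458 CPM at 12 hours. S100a9 was at 9460, 10330 and 12825 CPM at 0h and at 74389, 40900 and 60123 CPM at 12 hours. Every 12-hour library was above every 0h library for both genes. The edgeR test called both higher, with a log2 fold change of 2.43 ± 0.48 (SE) for S100a8 (adjusted p = 0.0178) and 2.19 ± 0.45 for S100a9 (adjusted p = 0.0198). These were the 2 members of 6 called in WT blood, where 13.5% of the 14625 genes tested were called. A gene counts as called here where its adjusted p was below 0.05 and its log2 fold change was beyond 1 in size. S100a6 also did not overlap between the groups, which makes 3 of 6 members against 34.7% of all genes tested. The direction held in each alternative, but the calls did not: with 1 library left out, both genes were called in 1 of 6 fits, with adjusted p from 0.00594 to 0.507 for S100a8, and without the filter on low counts neither was called. With the files of libraries 1a and 1b summed, which leaves 2 samples a group, both were called (2.53 for S100a8 and 2.35 for S100a9, edgeR adjusted p = 0.00224 for both).

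Blood of labelled αD KO mice had S100a8 at 18524, 10546 and 21262 CPM at 0h and at 51860, 80756 and 60097 CPM at 12 hours. S100a9 was at 17829, 11355 and 18926 CPM at 0h and at 43106, 40292 and 49135 CPM at 12 hours. The groups did not overlap for either gene. Both were called higher by edgeR, S100a8 by a log2 fold change of 1.77 ± 0.39 (SE, adjusted p = 0.032) and S100a9 by 1.26 ± 0.31 (adjusted p = 0.0449). They were 2 of 6 members called, with 8.75% of 14156 genes called in this comparison, and 4 of 6 members did not overlap, against 32.2% of all genes. With no filter on low counts both lost their calls (edgeR adjusted p = 0.0935 for S100a8 and 0.3485 for S100a9), as they did with all 8 groups in a single fit (0.1181 and 0.1647). S100a9 alone lost its call with the library number as a replicate block (adjusted p = 0.0655), with RLE scaling and with a filter of at least 10 counts in every library (adjusted p = 0.0587), and leaving out each of 4 of the 6 libraries removed both calls.

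In WT lung, S100a8 was at 13432, 11164 and 14745 CPM at 0h and at 29140, 66902 and 33353 CPM at 12 hours. S100a9 was at 13336, 11279 and 12636 CPM at 0h and at 30892, 48908 and 34217 CPM at 12 hours. All 12-hour libraries were above all 0h libraries, with library 1b highest for both genes. The log2 fold change was 1.82 ± 0.64 (SE) for S100a8 and 1.67 ± 0.55 for S100a9, and neither passed the edgeR threshold (adjusted p = 0.112 and 0.0962), while 9.02% of 14859 genes did. Of the 6 members edgeR called 0, 4 had an unadjusted p under 0.05 (26.6% of all genes), 5 did not overlap between the groups (28.5% of all genes), and the DESeq2 Wald test called 4 (18.9% of all genes), namely S100a8, S100a9, S100a4 and S100a6. The fold change of S100a8 fell to 0.92 without library 1b at 12 hours, and that of S100a9 was then 1.06 and called (adjusted p = 0.0325). In that fit 3941 of 15570 genes were called.

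Lung of labelled αD KO mice had S100a8 at 22723, 13842 and 37918 CPM at 0h and at 17310, 39549 and 16714 CPM at 12 hours. S100a9 was at 21541, 14588 and 33264 CPM at 0h and at 16443, 31796 and 23113 CPM at 12 hours. The times overlapped, with library 2 highest at 0h and library 1b highest at 12 hours. The log2 fold change was 0.18 ± 0.69 (SE) for S100a8 and 0.19 ± 0.60 for S100a9 (edgeR adjusted p = 0.9999 for both). None of the 6 members was called by edgeR, had an unadjusted p under 0.05, was called by DESeq2 or was free of overlap, where 0% of 17939 genes were called and 2.88% did not overlap. Without the 3 libraries that stood against their time labels, which leaves 1 library at 12 hours that is assumed to vary like the others, the log2 fold change was 1.18 for S100a8 and 0.89 for S100a9, neither called. S100a4 went from -0.34 ± 1.39 (SE) with all libraries to 3.76 ± 0.99 (edgeR adjusted p = 0.0156).

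**Figure D2:**
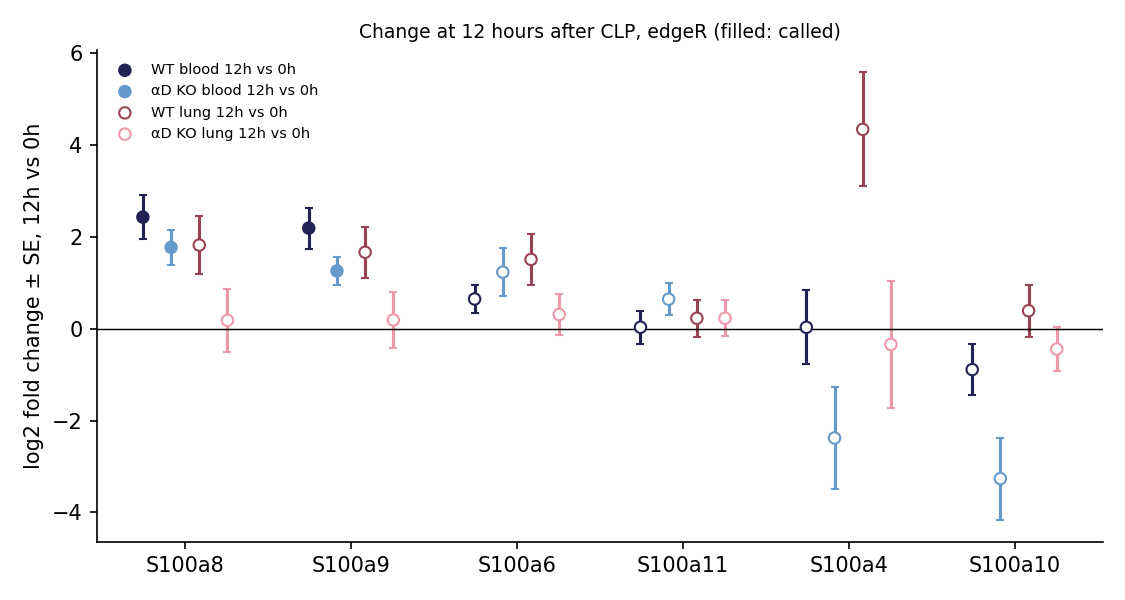
Log2 fold change at 12 hours against 0h (y axis, with SE) of the 6 members (x axis) in the 4 combinations of genotype and tissue, from edgeR with 3 libraries a group; filled points passed the threshold. S100a8 and S100a9 were called in blood of both genotypes, and all 6 members lie within 0.45 of 0 in labelled αD KO lung.

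Of 8 granule protein markers of immature neutrophils, edgeR called 1 of 6 tested higher at 12 hours in WT blood, 4 of 5 in WT lung, 1 of 5 in labelled αD KO blood and 0 of 6 in labelled αD KO lung, where 13.5%, 9.02%, 8.75% and 0% of all genes were called. The times did not overlap for 5 of 6, 4 of 5, 2 of 5 and 0 of 6 of these markers, against 34.7%, 28.5%, 32.2% and 2.88% of all genes. Ltf, Camp, Ngp and Lcn2 made up nearly all of the summed level of the 8, while Mpo, Elane and Ctsg had group means under 1 CPM. The sum was 272 to 6637 CPM in WT blood at 0h and 64480 to 142700 CPM at 12 hours, 434 to 1916 CPM and 28790 to 82590 CPM in WT lung, and 538 to 18590 CPM and 34800 to 107600 CPM in labelled αD KO blood. Labelled αD KO lung had sums of 679 to 68120 CPM at 0h, the highest being library 2, and 7714 to 23860 CPM at 12 hours. The share of S100a8 and S100a9 in library 1b of WT lung at 12 hours, 13.6%, came with the lowest granule sum of its group. The part of these transcripts in the calprotectin result was not tested.

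**Figure D3:**
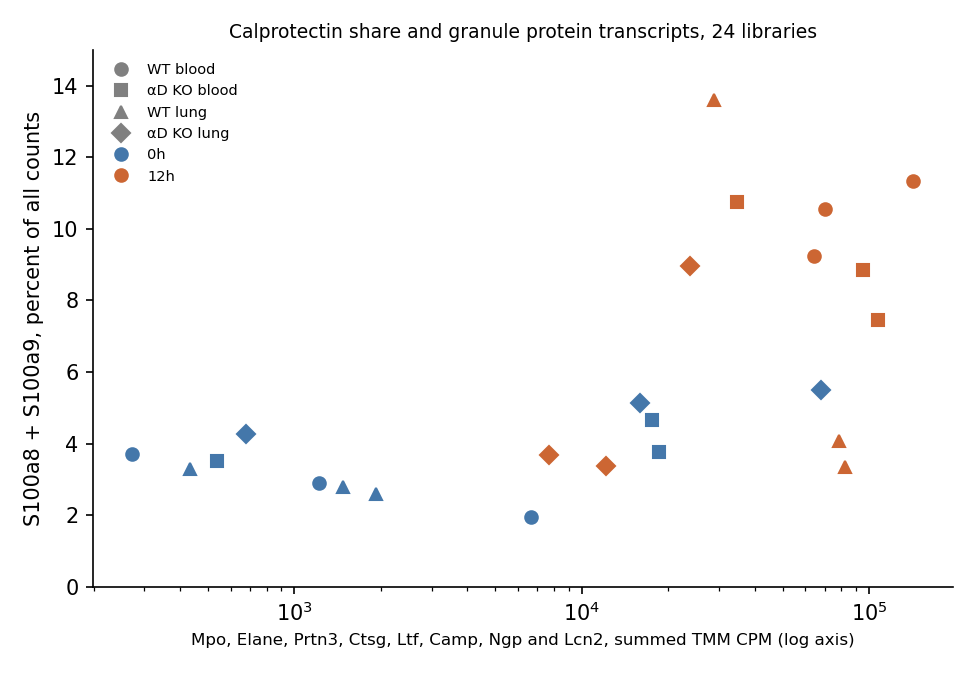
Share of all counts taken by S100a8 and S100a9 (y axis, percent) against the summed TMM CPM of Mpo, Elane, Prtn3, Ctsg, Ltf, Camp, Ngp and Lcn2 (x axis, log scale), with a point for each of the 24 libraries, shaped by genotype and tissue and coloured by time. Shares above 7% occur only in 12-hour libraries with sums of 23860 CPM or more, and the lung libraries with the highest sums have shares of 3.34%, 4.08% and 5.50%.

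The ratio of S100a8 to S100a9 within a library does not depend on the scaling. Per kilobase it was 0.54 to 1.03 in 23 libraries and 1.51 in library 1b of labelled αD KO blood at 12 hours. On the log2 scale it rose by 0.48 from 0h to 12 hours in labelled αD KO blood, where the groups did not overlap (exact permutation p = 0.1, adjusted p = 1.0 over 10 comparisons), and by 0.24 without library 1b at 12 hours. The other 9 comparisons overlapped, with differences from -0.19 to 0.22. That of labelled αD KO lung was -0.09, and 0.31 without the 3 libraries that stood apart.

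S100a6, at 548 to 2968 CPM over all libraries, was the other member that did not overlap between times in 3 comparisons. In WT blood it was at 741, 548 and 698 CPM at 0h and at 1252, 938 and 1423 CPM at 12 hours. Labelled αD KO blood had S100a6 at 688, 554 and 603 CPM at 0h and at 921, 2968 and 957 CPM at 12 hours. In WT lung it was at 711, 594 and 574 CPM at 0h and at 902, 2483 and 1642 CPM at 12 hours. Library 1b was the highest at 12 hours in the last 2 of these groups and far above the others in labelled αD KO blood. The log2 fold changes were 0.65 ± 0.31, 1.23 ± 0.53 and 1.51 ± 0.55 (SE), and none passed the edgeR threshold (adjusted p = 0.218, 0.172 and 0.125). Without library 1b at 12 hours it was 0.37 in labelled αD KO blood and 0.70 in WT lung. Labelled αD KO lung had it at 560, 554 and 960 CPM at 0h and at 672, 977 and 708 CPM at 12 hours, with overlap, a log2 fold change of 0.31 ± 0.45 (0.89 without the 3 libraries that stood apart).

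S100a11, the annexin A1 partner, stayed between 1370 and 4409 CPM in all libraries. Labelled αD KO blood had it at 1998, 1561 and 1934 CPM at 0h and at 2670, 4409 and 2712 CPM at 12 hours, without overlap, a log2 fold change of 0.65 ± 0.34 (SE, edgeR adjusted p = 0.263). In WT lung the groups also did not overlap, at 2130, 1747 and 2127 CPM at 0h and 2189, 2429 and 2392 CPM at 12 hours, and the log2 fold change of 0.23 ± 0.40 was not called (edgeR adjusted p = 0.775). In WT blood it ranged from 1370 to 2259 CPM at 0h and from 1989 to 2513 CPM at 12 hours, and in labelled αD KO lung from 1776 to 1998 CPM at 0h and from 1521 to 2920 CPM at 12 hours, with overlap in both. Its log2 fold change in labelled αD KO lung was 0.23 ± 0.39 (-0.23 without the 3 libraries that stood apart). A processed copy, S100a11-ps on chromosome 12, held 101 counts in all libraries against 962738 for S100a11.

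S100a4 and S100a10 were low and uneven. S100a4 was at 0.34, 1.34 and 0.040 CPM in WT lung at 0h (9, 26 and 1 counts) and at 5.99, 2.16 and 31.4 CPM at 12 hours, without overlap. Its log2 fold change of 4.34 ± 1.24 (SE) did not pass the edgeR threshold (adjusted p = 0.0649) and rests on 1 to 26 counts a library at 0h. With 1 library left out the value ran from 2.52 to 5.93. It was called in 1 of these 6 fits, that without library 1b at 12 hours, where 3941 of 15570 genes were called. At 0h in labelled αD KO blood, S100a4 was at 4.46, 1.06 and 34.1 CPM and S100a10 at 22.4, 3.03 and 70.5 CPM, with library 2 the highest of all 24 for both genes. At 12 hours S100a10 was at 4.35, 2.42 and 4.22 CPM there, overlapping library 1b at 0h, and its log2 fold change of -3.26 ± 0.89 (SE) was not called by edgeR (adjusted p = 0.0573) but was by DESeq2, which called 17.5% of all genes there. With 1 library left out its log2 fold change ran from -3.78 to -1.90 (edgeR adjusted p from 0.0151 to 0.236). Library 2 of labelled αD KO blood at 0h had the highest sum of 5 T and NK cell markers (231 CPM, against 3.52 to 26.4 CPM in the other libraries) and, with library 1a, the highest sums of 5 platelet markers (641 and 558 CPM). It was also the highest of the 24 for monocyte and macrophage (1701 CPM), B cell (1255 CPM) and erythroid markers (9054 CPM). Their part in the S100a4 and S100a10 levels was not tested. Elsewhere S100a10 ranged from 2.06 to 11.7 CPM.

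**Figure D4:**
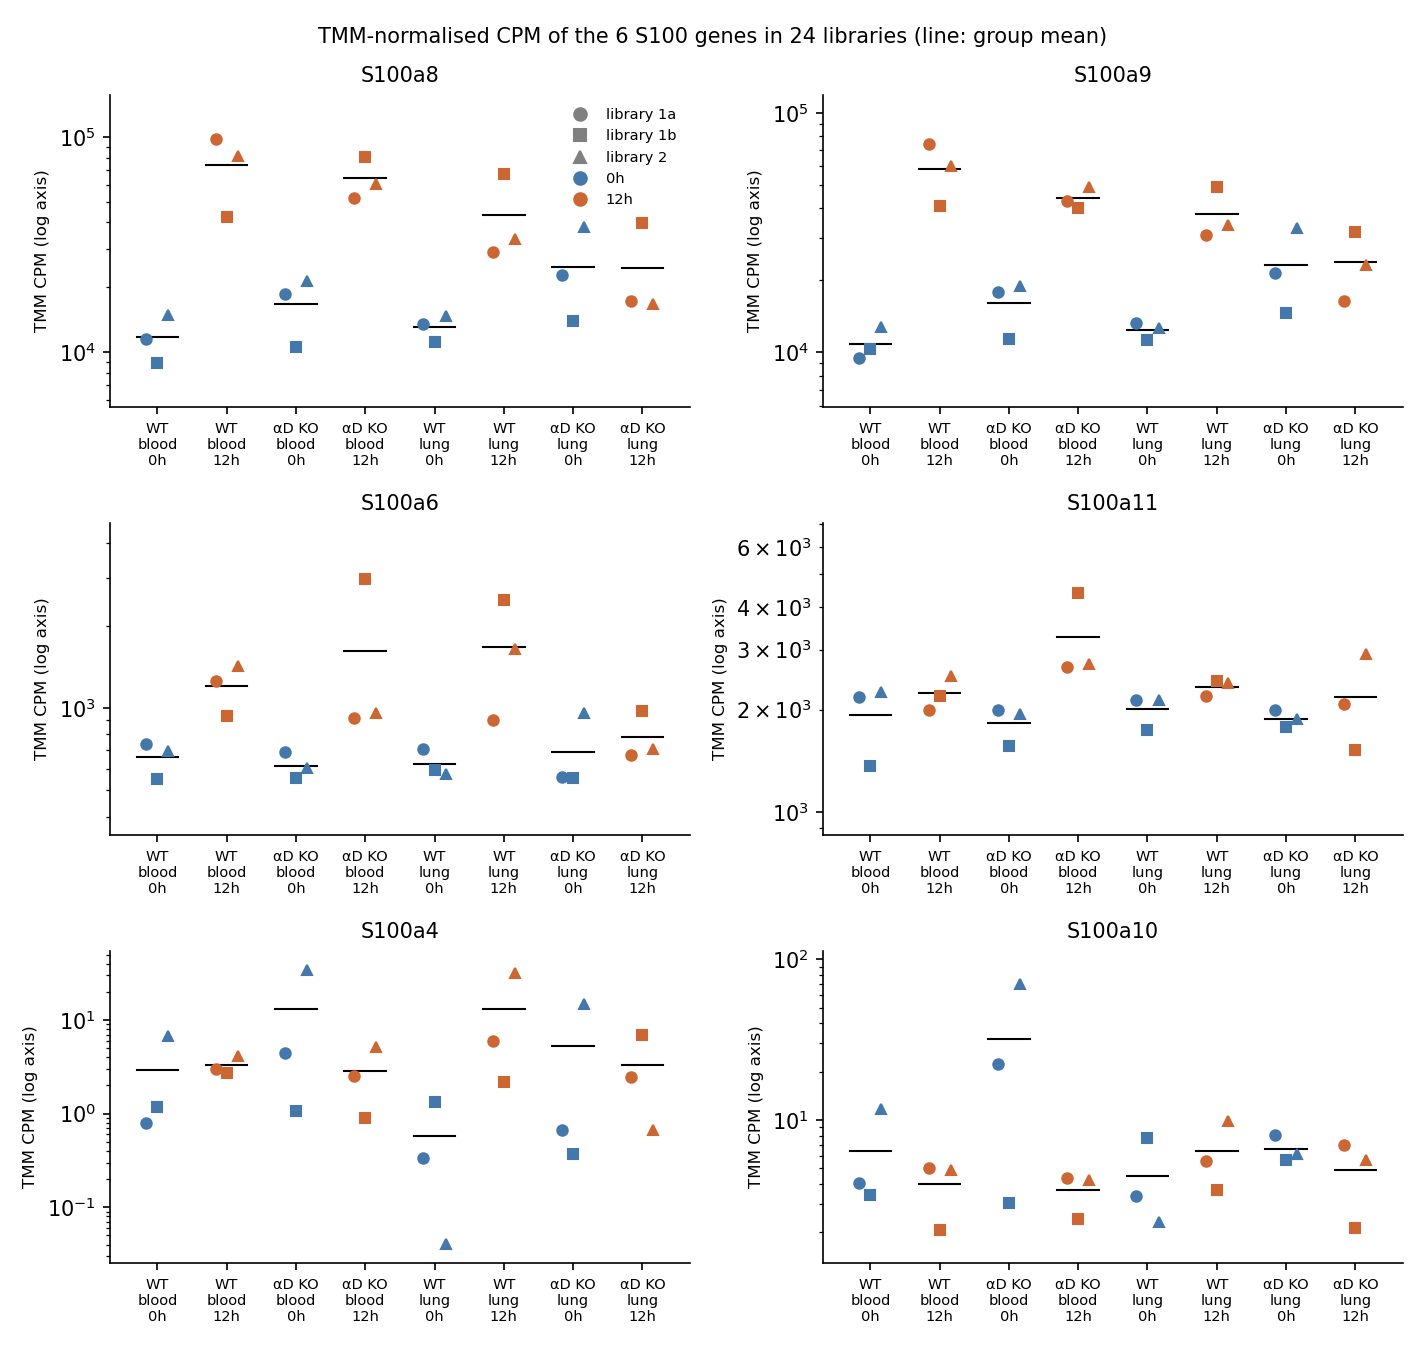
TMM-normalised CPM (y axis, log scale, a range of its own in each panel) of the 6 members in the 24 libraries, by group (x axis), with the group mean as a line. S100a8 and S100a9 are separated by time in blood, S100a11 varies little, and S100a4 and S100a10 are highest in library 2 of labelled αD KO blood at 0h.

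The median log2 fold change at 12 hours of the 6 members was 0.34 in WT blood, 0.94 in labelled αD KO blood, 1.59 in WT lung and 0.19 in labelled αD KO lung, against -0.15, -0.14, 0.03 and -0.05 over all genes tested. In labelled αD KO lung it was 0.89 without the 3 libraries that stood apart. In the order of group means, S100a8 and S100a9 were highest in WT blood at 12 hours (73961 ± 28405 and 58471 ± 16806 CPM, SD, n = 3), then labelled αD KO blood and WT lung at 12 hours, and lowest in WT blood at 0h. No neighbours in that order were separated in all libraries for either gene. For S100a11 the first group, labelled αD KO blood at 12 hours, was above every library of the next.

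WT lung and WT blood were compared at each time. At 0h, log2 differences of lung against blood were 0.07 for S100a8 and 0.06 for S100a9, and 0 of 6 members were called by edgeR, by DESeq2 or at an unadjusted p under 0.05, with 0% of 15967 genes called and 5.68% not overlapping. At 12 hours, S100a8 was lower in lung by a log2 difference of -0.46 ± 0.62 (SE) and S100a9 by -0.39 ± 0.52, all 6 members overlapped, and 0 of 6 were called by edgeR (adjusted p from 0.248 to 0.811), where 0.0442% of 13590 genes were called and 22.4% did not overlap; 1 member, S100a4, had an unadjusted p under 0.05, and DESeq2 called 0. Without library 1b of WT lung at 12 hours, S100a8 was called lower in lung (-1.34, edgeR adjusted p = 0.0453) and S100a4 higher (2.42, adjusted p = 0.0315). In that fit 2916 of 14435 genes were called. The change with time was not called different between lung and blood in WT by the edgeR interaction test for any member (0% of 23497 genes called, 0 members by DESeq2, 1 member, S100a4, at an unadjusted p under 0.05). The interaction was 4.25 ± 1.67 (SE) for S100a4, -0.84 ± 0.92 for S100a8 and -0.72 ± 0.81 for S100a9, against a median of 0.56 over all genes (0.73 with RLE scaling).

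Libraries labelled αD KO were compared with those of WT in each tissue and time, and edgeR called 0 of 6 members in all 4 comparisons, with no unadjusted p under 0.05 and no DESeq2 call. At 0h in blood, the log2 difference was 0.47 ± 0.48 (SE) for S100a8 and 0.48 ± 0.48 for S100a9, with 0.0115% of 17356 genes called, and 0 members against 2.98% of genes did not overlap. At 0h in lung, it was 0.87 ± 0.42 for S100a8 and 0.85 ± 0.38 for S100a9, S100a9 alone did not overlap (6.82% of 18232 genes, 0% called), and the joint share of 4.26% to 5.50% was above the 2.60% to 3.30% of WT (exact p = 0.1, adjusted p = 0.25). Without library 2 of labelled αD KO lung at 0h, the difference in share was 1.80 points in place of 2.07, and the log2 differences were 0.54 for S100a8 and 0.60 for S100a9. All 5 erythroid markers also did not overlap in this comparison, with sums of 1893 to 3522 CPM against 88.9 to 958.1 CPM in WT. Of 5 B cell markers 3 did not overlap, with sums of 53.9 to 417.1 CPM against 401.3 to 756.9 CPM in WT. Library 1a of labelled αD KO lung at 0h had 0.94% mitochondrial counts, against 0.0288% to 0.303% in the other libraries. Their part in the difference was not tested. At 12 hours in blood, the differences were -0.12 ± 0.38 and -0.38 ± 0.29, and 1 member, S100a11, did not overlap (log2 difference 0.58 ± 0.36, adjusted p = 0.962), beside 7.92% of 12596 genes, of which 0% were called. At 12 hours in lung, they were -0.69 ± 0.71 and -0.54 ± 0.59, and 0 members did not overlap, beside 10% of 16764 genes, of which 0% were called; without the 2 libraries that stood apart they were 0.10 and -0.0029, from 1 labelled αD KO library. The change with time was not called different between the genotypes by the edgeR interaction test in blood (S100a8 -0.56 ± 0.72, S100a9 -0.85 ± 0.62, 0% of 19792 genes called) or in lung (S100a8 -1.59 ± 0.86, S100a9 -1.43 ± 0.71, 0% of 23211 genes called), nor by DESeq2 in either, and of the members S100a4 in lung alone had an unadjusted p under 0.05. In lung, voom with sample quality weights called both (-1.30, adjusted p = 0.0307, and -1.35, adjusted p = 0.0117), where it called 3933 of 23211 genes. Without the 3 libraries that stood apart the edgeR values were -0.50 and -0.65, from 1 labelled αD KO library at 12 hours.

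Of 12 other S100 genes listed, 11 were in the files, and 5 of them averaged at least 1 CPM over the 24 libraries. S100a13, which takes part in the release of FGF1 and IL-1α, averaged 32.7 CPM, S100a1 8.50 CPM, S100a7a 3.29 CPM, S100a16 2.32 CPM and S100a3 1.90 CPM. S100a13 was called higher at 12 hours by edgeR in WT blood (log2 fold change 1.79 ± 0.40, SE, adjusted p = 0.0251) and WT lung (1.83 ± 0.38, adjusted p = 0.026). The value was 1.82 ± 0.48 in labelled αD KO blood (adjusted p = 0.0521) and in labelled αD KO lung 0.34 ± 0.55 (adjusted p = 0.9999). It was the only one of the other S100 genes called in any comparison. S100a13 also did not overlap between times in both blood comparisons and in WT lung, as S100a8 and S100a9 did not. Among the other S100 genes tested, 3 of 5 did not overlap in WT blood, 2 of 6 in WT lung and 3 of 5 in labelled αD KO blood. Over all genes, 34.7%, 28.5% and 32.2% did not overlap in these comparisons, and 13.5%, 9.02% and 8.75% were called.

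Binding partners and receptors of S100 proteins formed a list of 16 genes, all tested. In WT blood at 12 hours 4 were called higher and 1 lower by edgeR, with a median log2 fold change of -0.03, where 13.5% of all genes were called (8.75% in labelled αD KO blood, 9.02% in WT lung and 0% in labelled αD KO lung). Cd14, the lipopolysaccharide co-receptor that works with TLR4, rose by 3.39 ± 0.62 (SE, adjusted p = 0.0141), Mcam, an adhesion molecule reported to bind S100A8 and S100A9, by 2.83 ± 0.41 (adjusted p = 0.00641), and the annexin Anxa11, which pairs with S100a6, by 2.28 ± 0.35 (adjusted p = 0.00789), while Alcam fell (-1.89 ± 0.38, adjusted p = 0.0189); the fifth, Anxa1, is named after its values were seen (2.75 ± 0.56, adjusted p = 0.0197). The counts in labelled αD KO blood were the same, 4 higher and 1 lower, with the median at 0.21: Cd14 rose by 4.41 ± 0.55 (adjusted p = 0.00521), Mcam by 2.13 ± 0.40 (0.02) and Anxa11 by 2.08 ± 0.32 (0.00903), and Alcam fell (-2.35 ± 0.32, adjusted p = 0.00653). In WT lung 3 rose and none fell, with the median at 0.31: Cd14 by 4.97 ± 0.96 (adjusted p = 0.0221), Ahnak, a large scaffold that binds the S100a10 and annexin A2 pair, by 3.42 ± 0.53 (0.0121) and Anxa11 by 2.96 ± 0.44 (0.0103). In labelled αD KO lung 0 of 16 were called, with the median at -0.15.

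Of 8 myeloid transcription factors listed as regulators of the calprotectin genes, 1 rose and 1 fell in WT blood, Hif1a (1.57 ± 0.33, SE, edgeR adjusted p = 0.0225) and Cebpd (-1.97 ± 0.39, adjusted p = 0.0182). In labelled αD KO blood Hif1a rose (1.92 ± 0.37, adjusted p = 0.0216), and in WT lung Cebpa rose (2.14 ± 0.47, adjusted p = 0.0316). No regulator was called in labelled αD KO lung. Of all genes, 13.5%, 8.75% and 9.02% were called in these 3 comparisons, so 1 or 2 of 8 is no result about the list. List medians were -0.51, 0.12, 0.81 and 0.15 in these 4 comparisons.

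Over the 24 libraries, the genes most like each member were found by the Pearson correlation of log2 CPM among 6634 genes averaging at least 10 CPM, as a description, since the libraries share groups, tissues and sorts. The gene most like S100a8 was S100a9 (r = 0.972), followed by Nt5c3 (0.972) and Ifitm6 (0.962). For S100a9 the order was Ifitm6 (0.973), S100a8 (0.972) and Nt5c3 (0.965). S100a6 was nearest Actb (0.906), S100a11 nearest Gm12854 (0.871), S100a10 nearest Ctla2a (0.83) and S100a4 nearest Filip1l (0.762). Between members, r was 0.811 for S100a8 with S100a6, 0.537 for S100a8 with S100a11 and -0.18 for S100a8 with S100a10, and 0.542 for S100a4 with S100a10.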

How the data were processed

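Neutrophil RNA was amplified as full-length cDNA and made into libraries by tagmentation, and the submitters' processing notes name Trimmomatic 0.36, STAR 2.5.2b and GRCm38. Reads that mapped once and lay in exons entered the raw counts that the authors deposited for each gene, beside its exon length. The strand of counting is not given in the sources used here.

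Counts were tested with edgeR 4.0.16 (TMM factors, filterByExpr, quasi-likelihood F test, two-sided) in R 4.3.3 on the libraries of the groups compared, with Benjamini-Hochberg adjustment over all genes tested. The study's methods name DESeq2 and its thresholds; DESeq2 1.42.0 and limma 3.58.1 (voom) were alternatives, as were RLE factors, scaling without S100a8 and S100a9, other filters, all 8 groups in a single fit, summed files, a block and each library left out. Shares and ratios were compared by exact permutation tests (scipy 1.17.1). Scripts were tested on simulated data. Each of the 3 count files of a group was taken as a library. The counts of 1a and 1b differed beyond sampling noise (chi-square divided by its degrees of freedom, 63.5 to 328.5), so they are not a single library given in duplicate, but this does not show separate mice, and n = 3 counts libraries. Total counts ran from 5753476 to 29984954 per library.

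The labels state no pairing. The correlation of deviations of same-numbered libraries over genes was above 0.1 for every number in 5 comparisons, among them WT blood (0.459, 0.591 and 0.117) and labelled αD KO lung (0.168, 0.421 and 0.369) with time, WT lung against blood at both times, and labelled αD KO against WT blood at 0h.

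The members, gene lists and tests were chosen with earlier results of these data known. All members were named, other S100 genes with a mean of at least 1 CPM, at most 4 called genes of the lists of partners and regulators by adjusted p in a comparison, and the genes most like each member. Marker lists were used to check the cell type and to give values beside results.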

Additional observations from a re-analysis of the deposited data

How the results depend on the processing

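In WT blood at 12 hours against 0h, 2 of the 6 S100 genes were called, and the number was 0 with no filter on low counts and 0 to 2 with a library left out, being 0 for each library other than 1b at 0h. In labelled αD KO blood, also 2, it was 1 with RLE size factors, 0 with all 8 groups in a single fit and 1 with the replicate block, 3 with DESeq2, which added S100a10, 2 with no filter, which were then S100a4 and S100a10, 2 with at least 10 counts in every library, which were then S100a8 and S100a10, and 0 to 2 with a library left out. In WT lung, where 0 were called, it was 1 with no filter, 4 with DESeq2, 3 with the files of sample 1 summed, 5 with voom and 0 to 2 with a library left out, 2 being without library 1b at 12 hours; S100a11 then reversed to -0.0024 with no filter and -0.0133 with summed files, and ran from -0.14 to 0.28 with a library left out. In labelled αD KO lung, 1 was called without the libraries that stood apart, and S100a8 reversed to -0.0173 with all 8 groups, -0.29 with summed files, -0.0005 with the replicate block and -0.15 with voom (-0.54 to 0.47 with a library left out), and S100a9 to -0.0798 with summed files and -0.10 with voom (-0.23 to 0.45). WT lung against blood at 12 hours had 2 called with voom and 0 to 2 with a library left out. Voom called 1 in labelled αD KO against WT lung at 0h, 1 at 12 hours and 2 in the genotype by time interaction in lung. Over all genes it called 2102 of 18232, 3519 of 16764 and 3933 of 23211 there, in that order. For labelled αD KO against WT, S100a8 reversed to 0.10 in lung at 12 hours without the libraries that stood apart, and ran from -0.48 to 0.0275 in blood at 12 hours with a library left out. The cause of these changes was not tested. Same-numbered libraries were paired only by number in the other comparisons, and the block changed no other count of called members. Leaving out 1 of 3 libraries cannot move a share or ratio by more than the SD between libraries, so this is no sign of stability. Without library 1b at 12 hours the log2 ratio difference in labelled αD KO blood was 0.24 in place of 0.48. In the lung, without it the share difference was 0.82 points in place of 4.12 in WT and -1.44 in place of 0.37 in labelled αD KO, and labelled αD KO against WT at 12 hours turned from -1.68 to 1.62 points without that library of WT. Without the libraries that stood apart, an alternative added after seeing the data, the share difference in labelled αD KO lung was 4.25 points and that of the log2 ratio 0.31, and labelled αD KO against WT lung at 12 hours turned to 1.94 points. Scaling without S100a8 and S100a9 changed no count of called members. S100a4, with as few as 1 count in a library, is the member most limited by depth. Over all genes, edgeR called 1975 in WT blood, 1340 in WT lung and 1238 in labelled αD KO blood, and DESeq2 called 3132, 2807 and 2481. Voom called 5210 in WT lung and 3325 in WT lung against blood at 12 hours, where edgeR called 6 and the replicate block 65. Without the libraries that stood apart, 326 genes in place of 0 were called in labelled αD KO lung, from 1 library at 12 hours and after a choice of libraries by their place along a time change, which favours calls.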
